A study of Mus musculus with 16 samples.

Results

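The citric acid cycle and branched-chain amino acid catabolism were followed in mouse hearts through 40 genes, taken as a fixed list of symbols. Membership uses no measured value, but the list was chosen with earlier results of these data known. Of the 40 genes, 21 encode enzymes of the cycle or of the entry of pyruvate into it. The other 19 encode enzymes that break down leucine, valine and isoleucine. The arrays held 35556 probe sets, of which 21333 passed a filter on low values and were tested. All 40 genes were measured and all 40 passed the filter, each through the probe set of its symbol with the highest mean.

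The hearts came from 16 male mice of C57BL/6 background, 1 array per mouse and 4 mice per group, in a design of genotype by surgery. The 4 groups were zbtb17 cKO hearts after transverse aortic constriction (cKO TAC), zbtb17 cKO hearts after sham surgery (cKO sham), control hearts after constriction (control TAC) and control hearts after sham surgery (control sham). Constriction makes the heart pump against a raised pressure. Mice were 8 to 10 weeks old before surgery, and hearts were collected 4 weeks after it. Zbtb17 encodes the zinc finger transcription factor Miz1, and cKO stands for a conditional knockout. The labels give neither the promoter that drives the recombinase, nor the deleted part of the gene, nor the alleles the controls carry, so the cell types that lost the gene are not known here. They also do not say which part of the heart was taken.

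In the mitochondria of heart muscle, the pyruvate dehydrogenase complex turns pyruvate into acetyl-CoA, the cycle oxidises acetyl-CoA, and the electrons released feed the respiratory chain. Branched-chain amino acids are first transaminated, then decarboxylated by a dehydrogenase complex built like that for pyruvate, and after this shared step each amino acid has an arm of its own. The leucine arm ends in ketone bodies and acetyl-CoA, while the valine and isoleucine arms deliver propionyl-CoA, which enters the cycle as succinyl-CoA. In both complexes a dedicated kinase switches the enzyme off by phosphorylation. Reduced expression of both pathways is a known feature of failing mouse hearts.

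The deposited values are on a log2 scale, and each difference below is a log2 fold change. Array medians lay between 4.85 and 4.97 and Spearman correlations between arrays at 0.972 to 0.987. Precision is limited by the number of arrays, 4 in each group. The mean of 7 cardiomyocyte markers was at 12.98 to 13.23 on all arrays, and 3 of 4 skeletal muscle markers were below the filter. Atrial myosin light chain Myl7 was above 6 on 6 arrays, cKO TAC replicates 1 and 2, cKO sham replicate 2, control TAC replicates 1 and 2 and control sham replicate 3. Atf3, a stress-induced gene, was above 8 on 3 sham arrays, cKO sham replicate 1 and control sham replicates 3 and 4. In RNA from heart tissue, fewer cells of a type and less RNA per cell cannot be told apart.

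The 40 members had mean log2 values between 7.73 (Acad8) and 12.50 (Mdh1) over the 16 arrays. Their spread between mice was not compared with that of other probe sets. The smallest standard deviations over the 16 arrays were those of Idh3b at 0.095, Mdh2 at 0.097 and Idh3g at 0.11. Idh3b and Idh3g are regulatory subunits of the NAD-dependent isocitrate dehydrogenase, and Mdh2 is the mitochondrial malate dehydrogenase. The widest spread was that of Pdk4, a kinase that switches off pyruvate dehydrogenase, at 0.44. It was followed by Mccc1 at 0.39, a subunit of the leucine-arm enzyme methylcrotonyl-CoA carboxylase, and by Aldh6a1 at 0.25, the methylmalonate semialdehyde dehydrogenase of the valine arm. Mccc1 spanned nearly its whole range within single groups, with 7.98, 7.36, 8.03 and 8.74 in cKO sham hearts and 7.71, 7.26, 7.84 and 8.52 in control sham hearts (replicates 1 to 4).

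**Figure D1:**
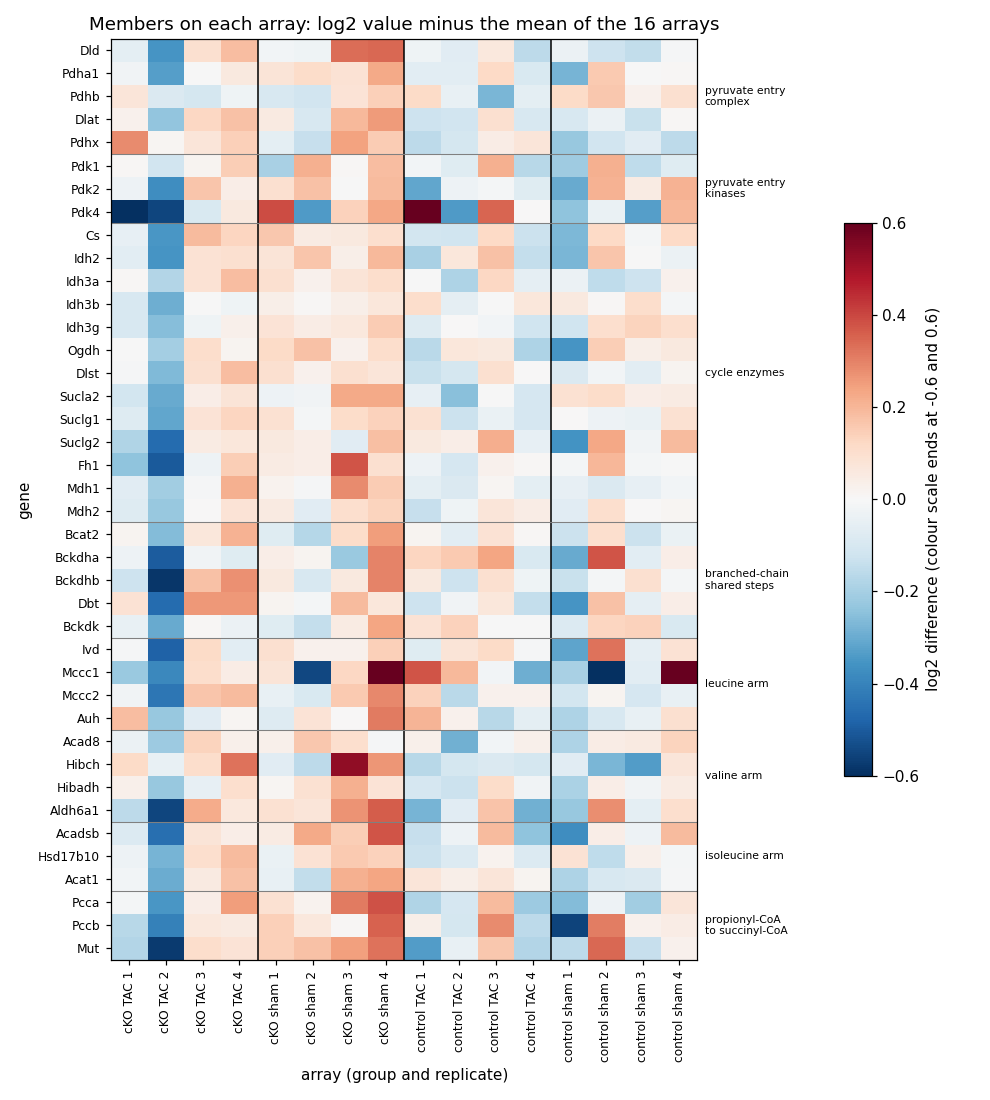
Heat map of the 40 members (rows, by role) on the 16 arrays (columns, by group). Colour gives the log2 value minus the mean of that gene over all arrays, red above and blue below it, and the column of cKO TAC replicate 2 is blue in 39 of 40 rows.

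Promoters of the members were examined because many members shared low values on the same array. RefSeq promoters of GRCm38.p6 were matched for 36 members, 47 promoters in all, and the 250 bases before each start were searched on both strands. The estrogen-related receptor element TCAAGGTCA was in 0 of 47 member promoters and in 0.387% of all 32851 promoters. The nuclear respiratory factor 1 core GCATGCGC was in 3 of 47, or 6.38%, against 2.26% of all promoters, and these belong to Ogdh and Pccb. The E-box CACGTG was in 5 of 47, or 10.6%, against 6.02%, in Mccc2, Ogdh and Pdk2. Promoters of Ogdh overlap and share sites, so these counts are not of independent promoters. Of the genes with a match, Mccc2 and Pdk2 had their lowest value on cKO TAC replicate 2. Ogdh and Pccb had theirs on control sham replicate 1, at 11.83 and 7.72. Any part of the motifs in the shared low values was not tested. For each gene with a match, 1 promoter stretch is shown 5′ to 3′ on the strand of the gene, with the match in capitals. They show the same nuclear respiratory factor 1 core in the promoters of a cycle enzyme and of a propionyl-CoA carboxylase subunit. There it reads as its reverse complement GCGCATGC. Ogdh lies at chr11:6292397-6292557 on the plus strand, and on the minus strand lie Pccb at chr9:101034892-101034939, Mccc2 at chr13:100015640-100015668 and Pdk2 at chr11:95041472-95041517.
Ogdh: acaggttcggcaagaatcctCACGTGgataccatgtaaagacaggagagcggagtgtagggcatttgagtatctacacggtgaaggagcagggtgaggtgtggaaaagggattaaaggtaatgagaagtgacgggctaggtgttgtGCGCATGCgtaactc
Pccb: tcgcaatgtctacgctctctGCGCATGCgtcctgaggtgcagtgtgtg
Mccc2: ttggaggtggtctgcgatggCACGTGtgc
Pdk2: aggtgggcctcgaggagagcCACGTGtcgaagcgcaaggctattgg
A match describes letters in a window and is not evidence of binding.

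A pattern shared across the members was that of a single heart. The cKO TAC replicate 2 array had the lowest value of all 16, ties included, in 30 of 40 members, 15 from each pathway, while it was lowest in 9.01% of all tested probe sets. Its members lay below their own mean in 39 of 40 cases. The median over the members of each value minus the mean of that gene, called the pathway median here, was -0.29 for the cycle and -0.385 for branched-chain catabolism on this array. On cKO TAC replicates 1, 3 and 4 the pathway medians were -0.056, 0.05 and 0.096 for the cycle and -0.031, 0.099 and 0.084 for branched-chain catabolism. At the other end, cKO sham replicate 4 had the highest value in 19 of 40 members, against 5.33% of all probe sets, and lay above the mean in 39. In control sham replicate 1, 35 of 40 members were below their mean and 4 were lowest, on an array that was lowest in 13.4% of all probe sets.

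Several lists of markers of other cell types were at their highest on the same array. Among all 16 arrays cKO TAC replicate 2 had the highest Myl7 at 8.83 and the highest mean of the atrial markers at 9.85, of the fibroblast markers at 9.11, of the macrophage markers at 7.69 and of the smooth muscle and pericyte markers at 8.75. The macrophage mean was nearly as high on control TAC replicate 4, at 7.65. The endothelial mean was not the highest, at 9.095 against 9.49 on control TAC replicate 4. On cKO TAC replicate 2 the mean of the cardiomyocyte markers was the lowest, at 12.98, but close to other arrays. It was 12.99 on control sham replicate 1 and 13.00 on control TAC replicates 1 and 4. Of 8 listed regulators of mitochondrial and branched-chain genes, the same cKO TAC array had the lowest Ppara, at 7.78, and Ppargc1b, at 6.94. Ppara is the receptor that drives fatty acid oxidation genes. The other listed regulators were not at their lowest on this array. The part of these differences in the low values of the members was not tested, and counts and medians of the members in each comparison that uses the array are given with and without it.

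**Figure D2:**
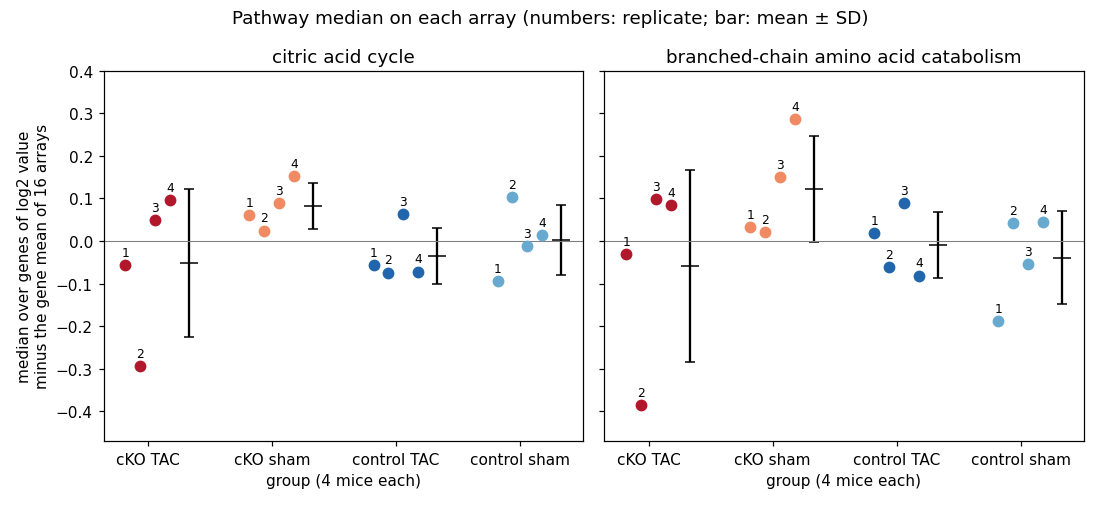
Pathway median on each array, the median over the 21 cycle genes (left) or 19 branched-chain genes (right) of the log2 value minus the gene's mean over 16 arrays. Points are mice with their replicate number, bars are mean ± SD (n = 4), and cKO TAC replicate 2 lies at -0.29 and -0.385, below every other array.

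As group means of the pathway median, the cycle was at -0.051 ± 0.17 in cKO TAC, 0.082 ± 0.054 in cKO sham, -0.035 ± 0.066 in control TAC and 0.0023 ± 0.081 in control sham hearts (SD, n = 4 each). Branched-chain catabolism was at -0.058 ± 0.23, 0.12 ± 0.12, -0.0088 ± 0.078 and -0.039 ± 0.11 in the same groups. The 4 groups overlapped in both pathways, and the cKO sham hearts had the highest group mean in both.

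TAC was first set against sham in cKO hearts. Of the 40 members, 39 had a fold change below 0, against 47.5% of all tested probe sets, and the median was -0.13 for the cycle and -0.135 for branched-chain catabolism, against 0.0075 over all probe sets. No member passed the test (limma, smallest adjusted p = 0.726), as 0% of all probe sets did. An unadjusted p under 0.05 with a lower level in cKO TAC was found for 5 members, against 2.93% of all probe sets, and 4 members had groups that did not overlap, lower in cKO TAC, against 2.08%. Without cKO TAC replicate 2, 29 of 40 members were below 0, the median over all 40 was -0.057 instead of -0.13, and 0 had an unadjusted p under 0.05. That last count, taken in either direction, was 14 without cKO TAC replicate 4, 8 without replicate 3 and 3 without replicate 1. Leaving out a cKO sham array gave 2 (replicate 3) or 1 (replicate 4). With all arrays it was 5 of the 40 members, and 1447 of 21333 probe sets. The share of all probe sets is not given for fits with an array left out.

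At the entry of pyruvate, 4 of 5 genes of the dehydrogenase complex were below 0 in this comparison, with a median of -0.08. Pdha1, the catalytic alpha subunit (probe set 10607587, chromosome X), had log2 values of 11.23, 10.92, 11.25 and 11.31 in cKO TAC hearts, against 11.33, 11.36, 11.34 and 11.48 in cKO sham hearts. The groups did not overlap, with a fold change of -0.20 ± 0.09 (SE, limma adjusted p = 0.731), and of -0.11 without replicate 2. Pdhx, which anchors the dihydrolipoamide dehydrogenase to the complex, was the exception among the 40 members at 0.078 ± 0.092. Dld, that dehydrogenase itself and shared by 3 complexes of these pathways, was at -0.19 ± 0.11, Dlat, the acetyltransferase core, at -0.08 ± 0.093 and Pdhb, the beta subunit, at -0.04 ± 0.084. All 3 kinases were below 0, with Pdk4 at -0.41 ± 0.26, Pdk2 at -0.165 ± 0.12 and Pdk1 at -0.04 ± 0.11. Without replicate 2, Dld was at -0.085, Pdk2 at -0.057, Dlat at 0.0058 and Pdk1 at 0.0025.

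All 13 cycle enzymes were below 0 in cKO TAC against cKO sham hearts, between -0.30 and -0.05 with a median of -0.13. Fh1, the fumarase (probe set 10360443, chromosome 1), had values of 10.74, 10.48, 10.95 and 11.13 in cKO TAC hearts, against 11.03, 11.02, 11.36 and 11.08 in cKO sham hearts. Replicate 2 was the lowest and replicate 4 of cKO TAC lay within the sham values, giving -0.30 ± 0.11 (SE, limma adjusted p = 0.726, 95% interval -0.54 to -0.057). Idh3g (probe set 10605090, chromosome X) had 12.04, 11.88, 12.11 and 12.17 in cKO TAC hearts, against 12.22, 12.18, 12.20 and 12.29 in cKO sham hearts. These groups did not overlap but came within 0.01 of each other, and the fold change was -0.17 ± 0.07. Idh3b (probe set 10487629, chromosome 2) had 12.37, 12.17, 12.46 and 12.44 in cKO TAC hearts, against 12.50, 12.47, 12.50 and 12.53 in cKO sham hearts. It also did not overlap, at -0.14 ± 0.06, and both subunits had an adjusted p of 0.726. Without replicate 2 these were -0.18 for Fh1, -0.12 for Idh3g and -0.077 for Idh3b.

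The catalytic subunit Idh3a was at -0.05 ± 0.077, the smallest difference among the cycle enzymes. Among the ligases that release succinate, the ADP-forming subunit Sucla2 was at -0.175 ± 0.086, the GDP-forming Suclg2 at -0.18 ± 0.13 and their shared partner Suclg1 at -0.13 ± 0.085. Suclg2 has a second probe set, which gave -0.19 and correlated with the first at 0.946 over the arrays. Citrate synthase Cs was at -0.11 ± 0.11, the NADP-dependent isocitrate dehydrogenase Idh2 at -0.18 ± 0.11, and Ogdh and Dlst, the first subunits of oxoglutarate dehydrogenase, at -0.13 ± 0.098 and -0.07 ± 0.082. Of the malate dehydrogenases, the cytosolic Mdh1 was at -0.13 ± 0.077 and the mitochondrial Mdh2 at -0.11 ± 0.069. Without replicate 2 these enzymes lay nearer 0, with Cs at -0.0025, Suclg2 at -0.0725 and Sucla2 at -0.099, and Idh3a and Dlst were above 0 at 0.017 and 0.019.

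All 19 branched-chain genes were below 0 in cKO TAC against cKO sham hearts, and 13 of 19 without cKO TAC replicate 2. In the shared steps the 5 genes ran from -0.19 ± 0.15 for Bckdha, a catalytic subunit of the branched-chain dehydrogenase, to -0.02 ± 0.10 for the mitochondrial transaminase Bcat2. Bckdhb, the partner of Bckdha, was at -0.14 ± 0.14, the transacylase core Dbt at -0.03 ± 0.14, and the inhibitory kinase Bckdk at -0.11 ± 0.093. In the leucine arm Mccc1 was at -0.24 ± 0.27, the isovaleryl-CoA dehydrogenase Ivd at -0.18 ± 0.13, Auh, a hydratase, at -0.105 ± 0.11 and Mccc2 at -0.10 ± 0.12. In the valine arm Aldh6a1 was at -0.305 ± 0.15, Hibadh, the hydroxyisobutyrate dehydrogenase, at -0.135 ± 0.079, Acad8, the isobutyryl-CoA dehydrogenase, at -0.095 ± 0.097 and Hibch, which releases hydroxyisobutyrate from CoA, at -0.02 ± 0.13. The 6 genes above 0 without replicate 2 were Dbt at 0.14, Bcat2 at 0.07, Hibch at 0.037, Mccc2 at 0.033, Bckdhb at 0.031 and Acat1, of the isoleucine arm, at 0.0067. Without it Aldh6a1 was at -0.16, Mccc1 at -0.15, Bckdha at -0.075 and Ivd at -0.057.

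The lowest median of any role was that of the 3 genes from propionyl-CoA to succinyl-CoA, at -0.255. Mut, the methylmalonyl-CoA mutase, listed by RefSeq as Mmut (probe set 10445214, chromosome 17), had values of 8.88, 8.48, 9.16 and 9.14 in cKO TAC hearts, against 9.20, 9.23, 9.30 and 9.38 in cKO sham hearts. The groups did not overlap, with all 4 cKO TAC hearts below the lowest sham heart, at -0.36 ± 0.15 (SE, limma adjusted p = 0.726), and at -0.22 without replicate 2. The propionyl-CoA carboxylase subunits Pcca and Pccb were at -0.22 ± 0.13 and -0.255 ± 0.16, or at -0.11 and -0.16 without replicate 2. In the isoleucine arm, the acyl-CoA dehydrogenase Acadsb (probe set 10558227, chromosome 7) had 8.85, 8.48, 9.01 and 8.97 in cKO TAC hearts, against 8.98, 9.16, 9.08 and 9.31 in cKO sham hearts. A single cKO TAC heart reached into the sham values, and the fold change was -0.305 ± 0.14 (adjusted p = 0.726), or -0.19 without replicate 2. The thiolase Acat1 was at -0.085 ± 0.096 and Hsd17b10, which also serves mitochondrial RNA processing, at -0.0925 ± 0.0875, the second at -8e-04 without replicate 2.

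**Figure D3:**
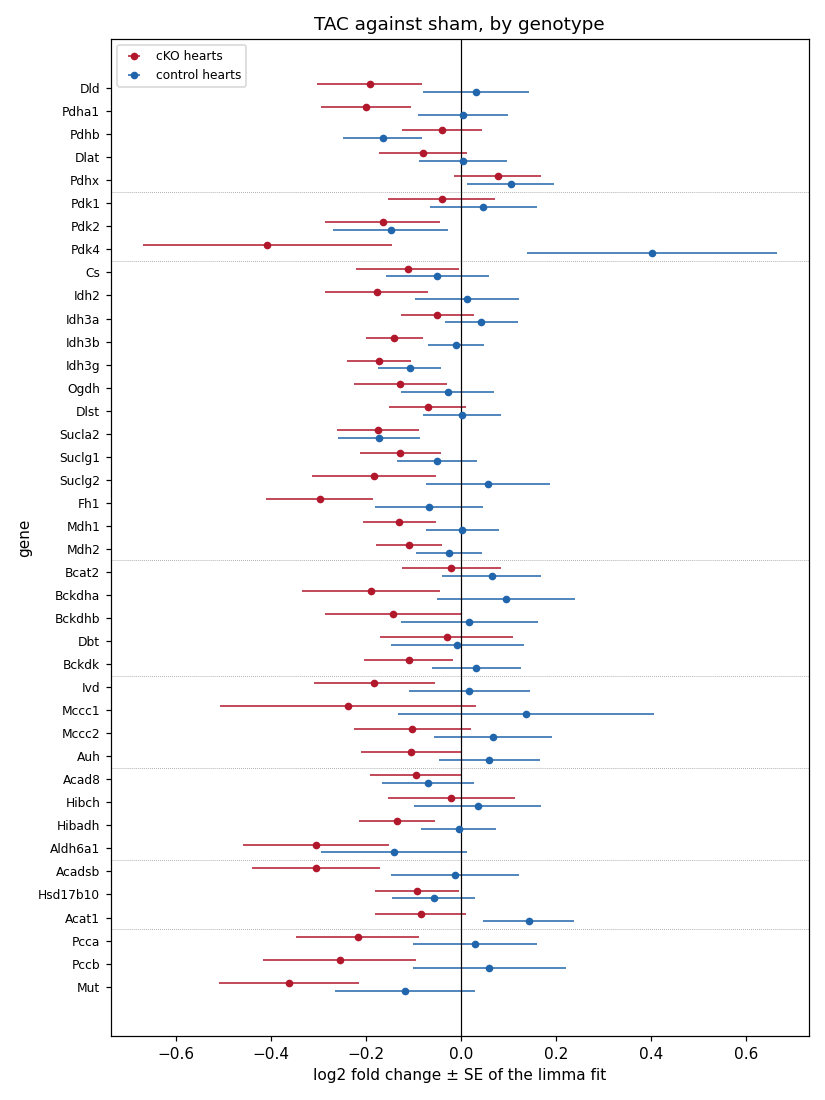
Log2 fold change of TAC against sham (x axis) for each of the 40 members (y axis, by role), with cKO hearts in red and control hearts in blue and bars of ± 1 SE of the limma fit. In cKO hearts 39 of 40 points lie left of 0, and in control hearts 17 of 40.

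In control hearts the same contrast had no common direction. Of the 40 members 23 were above 0, against 54.5% of all probe sets, and the medians were 0.0025 for the cycle, 0.03 for branched-chain catabolism and 0.015 over all probe sets. That split turned with the processing and with single arrays. Of the 40, 16 were above 0 after quantile normalization and 29 after median centring, with 48.1% and 36.7% of all probe sets below 0. The number above 0 was 11 without control sham replicate 1 and 12 without control TAC replicate 3, with 46.4% and 45.8% of all probe sets below 0. With all arrays in the main fit that share was 44.7%. No member passed (limma, smallest adjusted p = 0.613), as 0% of all probe sets did, and 0 members had an unadjusted p under 0.05. Sucla2 (probe set 10416379, chromosome 14) had 11.41, 11.21, 11.46 and 11.36 in control TAC hearts, against 11.55, 11.57, 11.50 and 11.51 in control sham hearts. It was the 1 member without overlap that was lower in control TAC, against 1.46% of all probe sets, at -0.17 ± 0.09 (SE, adjusted p = 0.613), close to its value in cKO hearts. Acat1 (probe set 10593591, chromosome 9) had 11.33, 11.29, 11.33 and 11.27 in control TAC hearts, against 11.07, 11.16, 11.17 and 11.25 in control sham hearts. It was the 1 member without overlap that was higher, against 2.27%, at 0.14 ± 0.096 (adjusted p = 0.709).

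The other members with the smallest p in control hearts belong to pyruvate entry and the cycle. Pdhb was at -0.165 ± 0.084 (adjusted p = 0.618), or at -0.095 without control TAC replicate 3. The others were Idh3g at -0.11 ± 0.066, Pdk2 at -0.15 ± 0.12 and Pdk4 at 0.40 ± 0.26. Pdk4 (probe set 10543017, chromosome 6) had 12.02, 10.49, 11.18 and 10.83 in control TAC hearts, against 10.59, 10.79, 10.50 and 11.03 in control sham hearts. Replicate 1 of control TAC was the highest of all 16 arrays, and without it the fold change was 0.11, while without control TAC replicate 2 it was 0.62. Idh3g had 12.06, 12.14, 12.12 and 12.02 in control TAC hearts, against 12.02, 12.24, 12.27 and 12.24 in control sham hearts, where replicate 1 stood apart. Without that sham array Idh3g was at -0.165 and Pdk2 at -0.26, neither past the test (adjusted p = 0.351 and 0.397), and without control TAC replicate 1 Pdk2 was at -0.079.

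The difference between the genotypes in the TAC effect was tested as the effect in cKO hearts minus that in control hearts. It was below 0 for 39 of 40 members, against 52.8% of all probe sets, with a median of -0.087 for the cycle, -0.165 for branched-chain catabolism and -0.0125 over all probe sets. No member passed (limma, smallest adjusted p = 1), as 0% of all probe sets did. The exception in sign was Pdhb at 0.125 ± 0.12. Pdk4 was the 1 member with an unadjusted p under 0.05 in the negative direction, against 2.05% of all probe sets, at -0.81 ± 0.37 (SE). Its values were 10.20, 10.28, 10.74 and 10.89 in cKO TAC and 11.22, 10.49, 10.97 and 11.06 in cKO sham hearts, and without control TAC replicate 1 the difference was -0.51. Next by p were Acat1 at -0.23 ± 0.14, Idh3b at -0.13 ± 0.084, Pdha1 at -0.205 ± 0.13, Acadsb at -0.29 ± 0.19 and Fh1 at -0.23 ± 0.16. Leaving out cKO TAC replicate 2 gave -0.14 for Acat1, -0.067 for Idh3b, -0.12 for Pdha1, -0.18 for Acadsb and -0.115 for Fh1. Without cKO TAC replicate 2 the difference was below 0 for 26 of 40 members, with a median of -0.042 over all 40. In either direction, 1 member and 790 of 21333 probe sets had an unadjusted p under 0.05 with all arrays. The count of members was 0 without cKO TAC replicate 2 and 4 without cKO TAC replicate 4, fits for which the share of all probe sets is not given.

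Averaged over the genotypes, TAC against sham was below 0 in 35 of 40 members, against 45.8% of all probe sets, with a median of -0.0725 over the 40. No member passed (smallest adjusted p = 0.276, 0% of all probe sets called). Those with an unadjusted p under 0.05 and a lower level after TAC were 4 cycle or propionyl-CoA genes, against 4.8% of all probe sets. They were Idh3g at -0.14 ± 0.05, Sucla2 at -0.17 ± 0.06, Mut at -0.24 ± 0.10 and Fh1 at -0.18 ± 0.08 (SE). Without cKO TAC replicate 2 the count below 0 was 26 and the median -0.028. With all arrays, 4 members and 2569 of 21333 probe sets had an unadjusted p under 0.05 in either direction. The count of members was 2 without cKO TAC replicate 2 and 9 without control sham replicate 1. Over arrays left out 1 at a time it was 2 to 9, with no share of all probe sets given beside it.

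cKO hearts were then set against control hearts after sham surgery, a comparison that shares the cKO sham arrays with the first one. Here 37 of 40 members were above 0, against 50.1% of all probe sets, with medians of 0.11 for the cycle, 0.14 for branched-chain catabolism and 0.0025 over all probe sets. No member passed (limma, smallest adjusted p = 0.422, 0.0234% of all probe sets called). An unadjusted p under 0.05 with a higher level in cKO sham was found for 3 members, against 5.96% of all probe sets, and 2 members did not overlap, higher in cKO sham, against 2.95%. Without control sham replicate 1, 32 of 40 were above 0 with a median of 0.075, and without cKO sham replicate 4, 33 were above 0 with a median of 0.10. In either direction, 3 members and 2278 of 21333 probe sets had an unadjusted p under 0.05 with all arrays. The count of members was 0 without cKO sham replicate 3 or 4, 1 without control sham replicate 1 or 3 and 7 without cKO sham replicate 2. For these fits the share of all probe sets is not given. The 3 members below 0 were Pdhb at -0.095 ± 0.084, Bckdk at -0.005 ± 0.093 and Idh3b at -0.0025 ± 0.059.

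By role, the medians in sham hearts were between 0.08 for the shared branched-chain steps and 0.20 for the propionyl-CoA genes. Pcca (probe set 10417183, chromosome 14) had 8.08, 8.01, 8.30 and 8.37 in cKO sham hearts, against 7.73, 7.96, 7.78 and 8.06 in control sham hearts, at 0.31 ± 0.13 (SE, limma adjusted p = 0.422). Only the highest control heart reached into the cKO values. Hibch (probe set 10346235, chromosome 1) had 8.62, 8.53, 9.22 and 8.95 in cKO sham hearts, against 8.62, 8.41, 8.35 and 8.76 in control sham hearts, at 0.295 ± 0.13 (adjusted p = 0.455), and at 0.165 without cKO sham replicate 3. Its cKO values formed a lower and a higher pair, and the lower pair lay within the control range.

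Dld (probe set 10399825, chromosome 12) showed the same split, with 10.48, 10.47, 10.83 and 10.84 in cKO sham hearts, against 10.46, 10.37, 10.35 and 10.49 in control sham hearts, at 0.24 ± 0.11 (adjusted p = 0.468). Replicates 3 and 4 of cKO sham were the high ones. Mdh1 (probe set 10384603, chromosome 11) had 12.52, 12.49, 12.78 and 12.65 in cKO sham hearts, against 12.45, 12.41, 12.45 and 12.48 in control sham hearts, and the groups did not overlap, at 0.16 ± 0.077 (adjusted p = 0.470), or 0.11 without cKO sham replicate 3. Dlst (probe set 10397311, chromosome 12) did not overlap either, with 10.56, 10.49, 10.56 and 10.54 against 10.38, 10.45, 10.40 and 10.48 in control sham hearts, at 0.11 ± 0.082 (adjusted p = 0.640). Both pairs of groups were 0.01 apart at their closest. Pdhx was at 0.19 ± 0.092, or 0.13 without cKO sham replicate 3, and Idh3a at 0.15 ± 0.077.

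**Figure D4:**
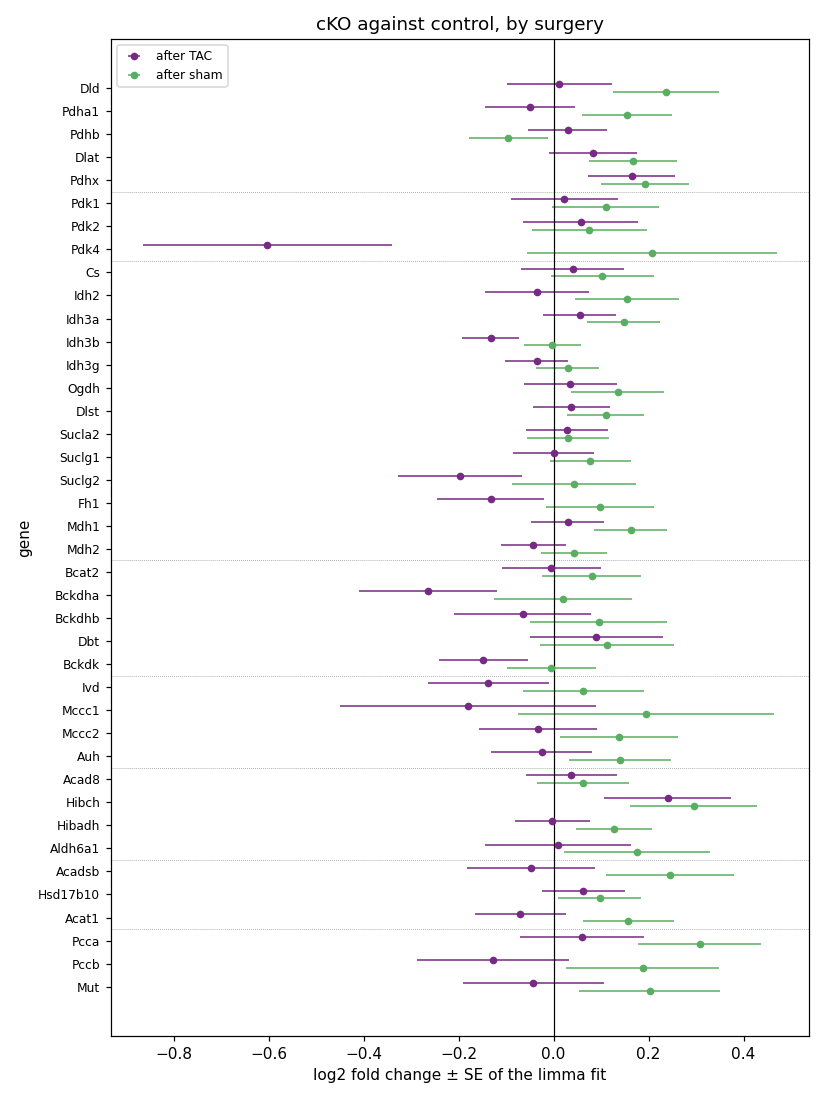
Log2 fold change of cKO against control (x axis) for each of the 40 members (y axis, by role), after TAC in purple and after sham in green, with bars of ± 1 SE of the limma fit. After TAC 18 of 40 points lie right of 0, and after sham 37 of 40.

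After TAC the genotypes showed no common direction. Of the 40 members 21 were below 0, against 51.2% of all probe sets, and the medians were 0.0225 for the cycle, -0.0325 for branched-chain catabolism and -0.005 over all probe sets. No member passed (limma, smallest adjusted p = 0.634, 0.00469% of all probe sets called). Pdk4 and Idh3b were the 2 members with an unadjusted p under 0.05 and a lower level in cKO TAC, against 3.75% of all probe sets. Pdk4 was at -0.60 ± 0.26 (adjusted p = 0.634), with the highest cKO TAC heart at 10.89 and control TAC replicate 1 at 12.02, and at -0.31 without that control array. Idh3b had 12.37, 12.17, 12.46 and 12.44 in cKO TAC hearts, against 12.57, 12.41, 12.46 and 12.53 in control TAC hearts, at -0.13 ± 0.06 (adjusted p = 0.644), and at -0.069 without cKO TAC replicate 2 (adjusted p = 0.768). With cKO TAC replicate 2 left out, 31 of 40 members were above 0 with a median of 0.087. The split turned the other way without cKO TAC replicate 4, with 31 of 40 below 0 and a median of -0.059, and without replicate 3, with 28 below 0 and a median of -0.036.

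Hibch was the 1 member without overlap that was higher in cKO TAC hearts, against 2.38% of all probe sets. It had 8.80, 8.64, 8.79 and 9.01 in cKO TAC hearts, against 8.52, 8.58, 8.60 and 8.58 in control TAC hearts, at 0.24 ± 0.13 (SE, limma adjusted p = 0.712). Pdhx (probe set 10485429, chromosome 2) had 8.45, 8.18, 8.24 and 8.31 in cKO TAC hearts, against 8.01, 8.06, 8.21 and 8.24 in control TAC hearts, at 0.165 ± 0.092. The kinase Bckdk and its target Bckdha both had values below 0, at -0.15 ± 0.093 and -0.265 ± 0.15. In each, cKO TAC replicate 2 was the lowest heart, and without it they were at -0.0775 and -0.15.

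Averaged over surgery, cKO against control was above 0 in 30 of 40 members, against 48.7% of all probe sets, with a median of 0.055. No member passed (limma, smallest adjusted p = 0.221, 0.0188% of all probe sets called). The 2 members with an unadjusted p under 0.05 and a higher level in cKO hearts, against 8.24% of all probe sets, were Hibch at 0.27 ± 0.09 (adjusted p = 0.221) and Pdhx at 0.18 ± 0.06 (adjusted p = 0.230). Without cKO TAC replicate 2, 34 of 40 were above 0 and the median was 0.095, while without control sham replicate 1 the median was 0.03. With all arrays, 2 members and 3182 of 21333 probe sets had an unadjusted p under 0.05 in either direction. The count of members was 10 without cKO TAC replicate 2 and 5 without control TAC replicate 3. No member passed the test in these fits. Their share of all probe sets is not given, so the counts have no background to be judged against.

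**Figure D5:**
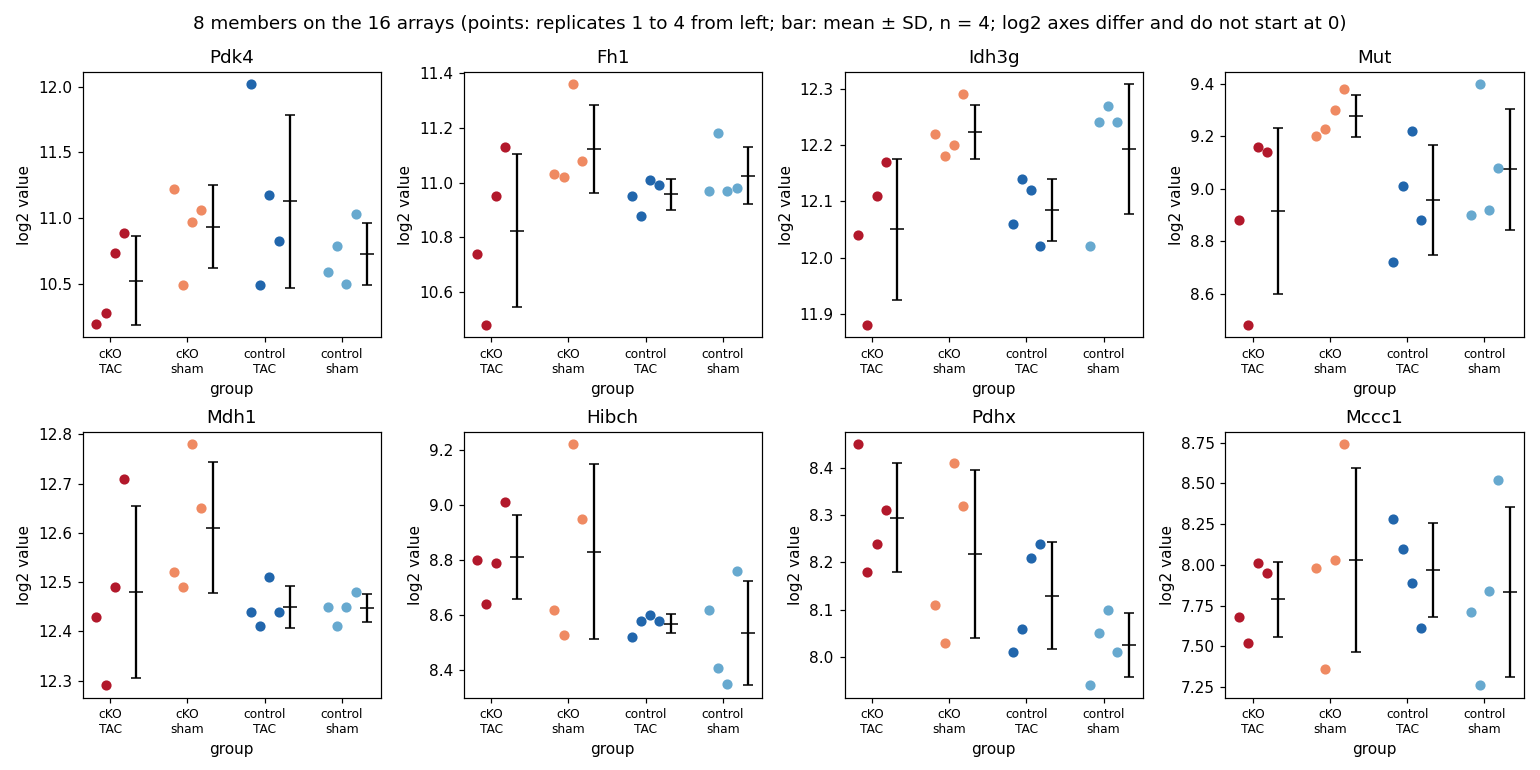
Log2 values of 8 members on the 16 arrays, in panels by gene, with the groups cKO TAC, cKO sham, control TAC and control sham from left to right, points for replicates 1 to 4 and bars for mean ± SD (n = 4). Mut and Idh3g do not overlap between cKO TAC and cKO sham, Pdk4 is highest in control TAC replicate 1 at 12.02, and Mccc1 spreads widely in both sham groups.

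Other genes of the pathways were listed as a background to the members. Of 23 further genes of the cycle, pyruvate entry and its filling reactions, 20 were tested. For TAC against sham in cKO hearts 14 were below 0, against 47.5% of all probe sets, with a median of -0.0925. Without cKO TAC replicate 2, 11 were below 0 with a median of -0.021. None passed (smallest adjusted p = 0.726). The succinate dehydrogenase subunit Sdha had 11.86, 11.63, 12.15 and 12.06 in cKO TAC hearts, against 12.22, 12.27, 12.16 and 12.21 in cKO sham hearts. The groups did not overlap, lower in cKO TAC as in 2.08% of all probe sets. Its fold change was -0.29 ± 0.11, and -0.19 without replicate 2. After sham, 17 of the 20 were above 0 for cKO against control, against 50.1% of all probe sets. Pyruvate carboxylase Pcx was at 0.34 ± 0.13 and Sdhd, another subunit of succinate dehydrogenase, at 0.23 ± 0.10. Pcx was at 0.20 without control sham replicate 1, and Sdhd at 0.13 without cKO sham replicate 3. In control hearts 14 of the 20 were above 0 for TAC against sham, against 54.5% of all probe sets.

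Of 15 further branched-chain genes 14 were tested, and none passed in any comparison. In cKO hearts 12 of the 14 were below 0 for TAC against sham, against 47.5% of all probe sets. Without cKO TAC replicate 2 it was 8 of the 14. An exception was Slc25a44, the mitochondrial carrier for branched-chain amino acids, with 7.51, 7.27, 7.52 and 7.28 in cKO TAC hearts, against 7.21, 7.20, 7.14 and 7.02 in cKO sham hearts. It was without overlap in both genotypes, at 0.25 ± 0.098 in cKO and 0.265 ± 0.098 in control hearts. In control hearts 2.27% of all probe sets were higher after TAC without overlap, a share not given for cKO hearts. Averaged over genotype Slc25a44 was at 0.26 ± 0.07 (SE, limma adjusted p = 0.233). Its values were 7.39, 7.37, 7.33 and 7.43 in control TAC hearts, against 6.81, 7.21, 7.26 and 7.18 in control sham hearts, and without the lowest of these, replicate 1, its fold change there was 0.16. Mmab, which makes the cofactor of Mut, was at -0.20 ± 0.091 in cKO and 0.24 ± 0.091 in control hearts for the same contrast. Single arrays weighed on both values. Mmab was at 7.18 on cKO TAC replicate 2, with the others of that group at 7.32 to 7.47. On control sham replicate 1 it was at 7.09, with the others of that group at 7.35 to 7.42. Abat, a transaminase that also acts in valine breakdown, was at 0.535 ± 0.20 for cKO against control after sham.

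Of the 8 regulators of mitochondrial and branched-chain genes that were listed, all 8 were below 0 for TAC against sham in cKO hearts. For all probe sets this share was 47.5%. It was 6 of 8 regulators without cKO TAC replicate 2. In control hearts 4 of 8 were below 0, against 44.7% of all probe sets. Ppargc1a, a coactivator of mitochondrial genes, was at -0.50 ± 0.22 and Ppara at -0.48 ± 0.19 in cKO hearts (SE, limma adjusted p = 0.728 and 0.726). Both moved with single arrays, since Ppargc1a was at -0.26 without cKO sham replicate 1 and Ppara at -0.29 without cKO TAC replicate 2. Klf15, a transcription factor known to activate branched-chain catabolism in heart, had 7.38, 7.57, 7.53 and 7.35 in control TAC hearts, against 7.64, 8.05, 7.71 and 7.86 in control sham hearts. These did not overlap, lower in control TAC as in 1.46% of all probe sets, at -0.36 ± 0.13 (adjusted p = 0.505).

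Marker lists were set beside these comparisons. For TAC against sham, 47.5% of all probe sets were below 0 in cKO and 44.7% in control hearts. In both genotypes 8 of 8 fibroblast and 7 of 7 macrophage markers were above 0, with none past the test. Without cKO TAC replicate 2, 7 of 8 and 7 of 7 were above 0 in cKO hearts, and the fibroblast median was 0.10 instead of 0.32. The mean of the fibroblast markers ranged over 8.11 to 9.11 in cKO TAC, 7.99 to 8.50 in cKO sham, 8.09 to 8.59 in control TAC and 7.87 to 8.39 in control sham hearts. The mean of the macrophage markers ranged over 6.88 to 7.69, 6.65 to 6.90, 6.99 to 7.65 and 6.48 to 7.20 in the same groups. The mean of the cardiomyocyte markers was at 12.98 to 13.22 in cKO TAC, 13.17 to 13.23 in cKO sham, 13.00 to 13.13 in control TAC and 12.99 to 13.17 in control sham hearts. For cKO against control, 6 of 6 endothelial markers were below 0 after both surgeries, against 51.2% of all probe sets after TAC and 49.2% after sham. After sham, 7 of 7 cardiomyocyte markers were above 0, against 50.1%, and none of these markers passed the test. Control sham replicate 1 had the lowest cardiomyocyte mean of its group, at 12.99, and the highest endothelial mean of its group, at 9.24. The part of these lists in the values of the members was not tested. Without the 6 arrays with Myl7 above 6, 28 of 40 members were below 0 for TAC against sham in cKO hearts, with a median of -0.052 over the 40, and 38 were above 0 for cKO against control after sham, with a median of 0.135. Without the 3 sham arrays with Atf3 above 8, these counts were 39 and 38.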

How the data were processed

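RNA of 16 hearts was labelled with biotin and measured on Affymetrix arrays, 1 per mouse. The values in the deposited table are on a log2 scale, as the authors left them, and per the submitters' processing notes MAS5 was used (version and scaling are not given in the sources used here). Groups and replicate numbers came from the sample titles. Gene names came from the platform annotation, with 21789 probe sets of 1 symbol and 1621 of several, none of which was named. A probe set was tested if its mean was above the 40th percentile (4.37). limma 3.58.1 in R 4.3.3 fitted a mean for each of the 4 groups, with 12 residual degrees of freedom, with empirical Bayes and a mean-variance trend. Tests were two-sided, with Benjamini-Hochberg adjusted p under 0.05 over 21333 probe sets, and the script was tested on simulated data. Standard errors and 95% intervals are those of the fit. The labels give no batch, and any 2 arrays differed in at least 97.4% of probe sets. The members, the lists of other genes and the alternatives were chosen with earlier results of these data known. Pathways are therefore described by counts and medians without a test.

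Members were named by a rule: in each genotype or surgery comparison, and for the difference between genotypes, the 6 of smallest p and those without overlap, and the 3 that vary most and least. Values of the other members are given beside them. The probe set of highest mean stood for each gene. Hibadh has another, under the filter at 3.05. The values were also normalized by quantiles or centred on the array median. The filter was dropped or set at the 60th percentile. The fit was repeated with no trend, with the replicate block, and on only the 2 groups compared. A gene was also taken as the average of its probe sets. Arrays were left out 1 at a time, which for the other genes and markers was added after seeing the data, and further alternatives were leaving out the 6 arrays with Myl7 above 6 and leaving out the 3 sham arrays with Atf3 above 8. Counts of an unadjusted p under 0.05 with an array left out take both directions, and their share over all probe sets is not given. Figures were drawn with matplotlib 3.10.9.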

Additional observations from a re-analysis of the deposited data

Results flagged for a closer look

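Of 168 sets of 4 arrays examined for a sample far from the other 3 (gap over range above 0.829), 9 stood out, and chance flags about 1 in 20. In cKO TAC hearts replicate 2 was low in Bckdha, at 8.75 with the others at 9.18 to 9.23, and in Bckdk, at 8.85 with the others at 9.11 to 9.16. In control TAC hearts replicate 3 was high in Cs, at 12.07 with the others at 11.82 to 11.84, in Pdha1, at 11.37 with the others at 11.16 to 11.19, and in Dlat, at 10.53 with the others at 10.31 to 10.34. The same array was high in the pathway median of the cycle, at 0.064 with the others at -0.074 to -0.057. Acad8 was low in control TAC replicate 2, at 7.44 with the others at 7.71 to 7.76. In control sham hearts Idh3g was low in replicate 1, at 12.02 with the others at 12.24 to 12.27, and Fh1 was high in replicate 2, at 11.18 with the others at 10.97 to 10.98.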

How the results depend on the processing

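No member passed the test under any of the alternatives, and no named value changed its side of the threshold or turned a call. The smallest adjusted p of any member over all comparisons and alternatives was 0.124, for cKO against control averaged over surgery without control sham replicate 4. The median of the cycle for TAC against sham in cKO hearts moved to -0.022 without the 6 arrays with Myl7 above 6. The counts of all probe sets called are small and moved as follows, against 0 for TAC in cKO, 0 for TAC in control hearts, 1 for cKO after TAC, 5 for cKO after sham, 0 for TAC averaged and 4 for cKO averaged. Of 24 same-numbered pairs of arrays, 6 had deviations that correlated over 0.1 (range -0.20 to 0.19). Correlations this weak cannot decide whether the replicate numbers pair mice. With the numbers as blocks no member's call changed. Quantile normalization gave 2 for cKO after TAC and 8 for cKO averaged. Median centring gave 0 for cKO after sham and 2 for cKO averaged. No filter gave 5 for TAC in control hearts, 1 for TAC averaged and 1 for cKO averaged. The filter at the 60th percentile gave 0 for cKO after sham and 9 for cKO averaged. No trend gave 0 for cKO after TAC, 3 for cKO after sham and 2 for cKO averaged. The replicate number as a block gave 0 for cKO after sham and 2 for cKO averaged. The mean of probe sets gave 2 for cKO after TAC, 0 for cKO after sham and 8 for cKO averaged. Only the 2 groups compared gave 1 for TAC in cKO, 1 for TAC in control hearts, 0 for cKO after TAC and 3 for cKO after sham. Without the 6 arrays with Myl7 above 6, cKO after TAC gave 0, cKO after sham 0 and cKO averaged 1. Without the 3 arrays with Atf3 above 8, TAC in control hearts gave 1, cKO after TAC 0 and cKO after sham 0. The cause of these moves was not tested. Leaving out 1 array at a time gave counts of 0 to 1 for TAC in cKO, 0 to 2 for TAC in control hearts, 1 to 2 for cKO after TAC, 0 to 27 for cKO after sham, 0 to 1 for TAC averaged, 1 to 81 for cKO averaged (27 and 81 without control sham replicate 4) and 0 for the difference between genotypes. For TAC against sham in cKO hearts it gave medians of -0.19 to -0.067 for the cycle and -0.18 to -0.04 for branched-chain catabolism.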
